A study of Rattus norvegicus with 2 samples.

Results

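The genes that carry amino acids and transmitters across membranes were examined in single cells of the female rat hypothalamus. They were chosen by name, as every gene of the solute carrier (Slc) families 1, 3, 6, 7, 36 and 38 listed in the files with the exception of 1 gene, which gave 58 of the 32883 genes listed, and 57 are reported. Slc7a6os is kept because its symbol fits the rule, but it is no carrier and is named for its position opposite Slc7a6. Hypothalamic tissue with the AVPV and the ARC (anteroventral periventricular and arcuate nuclei, which hold the kisspeptin neurons) was taken from Sprague Dawley females on postnatal day (PND) 29 and dissociated with collagenase. SC300 females received 300 µg of estradiol benzoate (EB), an ester of the main estrogen, in an implanted silicone capsule on PND 0.5. For Control females the methods give an oil-filled capsule, whereas the sample labels call them intact. Each group was 1 library from the pooled tissue of 3 rats. The spread between rats was therefore not measured, and SC300 and Control are compared without a test.

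Glutamate and GABA are cleared from the synapse by sodium-driven carriers, which for glutamate lie mostly on astrocytes. Glutamate is taken up by the SLC1 family and GABA, glycine, creatine and taurine by the SLC6 family. Glutamine returns to neurons through the SLC38 family. The SLC7 light chains exchange amino acids at the cell surface once they are joined to a heavy chain of the SLC3 family. Among them, Slc7a11 (xCT) exports glutamate in exchange for cystine, the source of cysteine for glutathione. Endothelial cells of the blood-brain barrier carry large neutral and cationic amino acids into the brain through Slc7a5 and Slc7a1.

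Transcripts were counted by their UMIs (unique molecular identifiers), short tags added to each molecule before amplification. The deposited counts held 52004789 UMIs in 4488 cell barcodes of Control and 57013099 UMIs in 4524 barcodes of SC300, and 9 barcode sequences occurred in both libraries. Barcodes with at least 200 detected genes were kept, 4296 in Control and 4379 in SC300, with a median of 7986 and 8182 UMIs. Each was assigned to a class by marker genes, none of them a member, when 1 marker list led all others by at least 1.5-fold. The classes are called "-like" because they are ranges of a marker score. They held 3567 Control and 3729 SC300 barcodes, and 729 and 650 barcodes fell into no class. Astrocyte-like barcodes were the most numerous (1277 in Control and 1433 in SC300), and tanycyte-like barcodes, from the cells that line the third ventricle, numbered 120 and 52. Of the latter, 65 and 32 led by less than 2-fold and lie near the limit. The tanycyte list rested on 3 markers in use (Crym, Lhx2 and Ppp1r1b) of 9 listed. Among the genes most enriched in a class were Frzb, Crym and Stra6 in tanycyte-like, Cldn5 in endothelial cell-like, and Dcn and Col1a1 in stromal cell-like barcodes, and the microglia-like class was led by Ccl3 and Ccl4, 2 chemokine genes. Of these, Crym, Cldn5, Dcn and Col1a1 were markers in use, so their enrichment follows from the gate. Levels are given per 1000000 UMIs of a class (CPM), and are compared for 1 gene between classes or libraries, not between genes. Intervals are exact 95% intervals and cover counting error only.

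Of the 57 genes, 38 reached 50 UMIs in at least 1 class over both libraries, 14 had 10 UMIs or fewer in all barcodes and 5 had none (Slc6a2, Slc6a14, Slc6a18, Slc6a19 and Slc36a2). Among the 11 classes with at least 20 barcodes in each library, 32 of the 38 genes had their highest level in the same class in both libraries. It was the astrocyte-like class for 8 genes, the endothelial cell-like class for 8, neuron-like and newly formed oligodendrocyte-like for 4 each, ependymal cell-like for 3, microglia-like and oligodendrocyte precursor-like for 2 each, and mural cell-like for 1. The 6 genes whose highest class differed between the libraries were Slc1a5, Slc1a6, Slc6a7, Slc7a4, Slc38a9 and Slc38a10, none above 36.5 CPM in a ranked class. Slc38a9, for example, led in mural cell-like barcodes of Control (21.2 CPM) and newly formed oligodendrocyte-like barcodes of SC300 (13.9 CPM). Slc38a10 led in microglia-like (3.86 CPM) and mural cell-like (13.6 CPM), and Slc1a5 in mural cell-like (10.6 CPM) and microglia-like barcodes (4.36 CPM). Slc1a6, a neuronal glutamate carrier, led in oligodendrocyte precursor-like (11.6 CPM) and neuron-like barcodes (7.17 CPM). The mural cell-like class led in 1 library for Slc1a5, Slc6a7, Slc38a9 and Slc38a10. It held only 94468 UMIs in Control and 147034 in SC300, so its levels of these genes rest on very few UMIs. Their leading class is therefore not resolved.

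**Figure D1:**
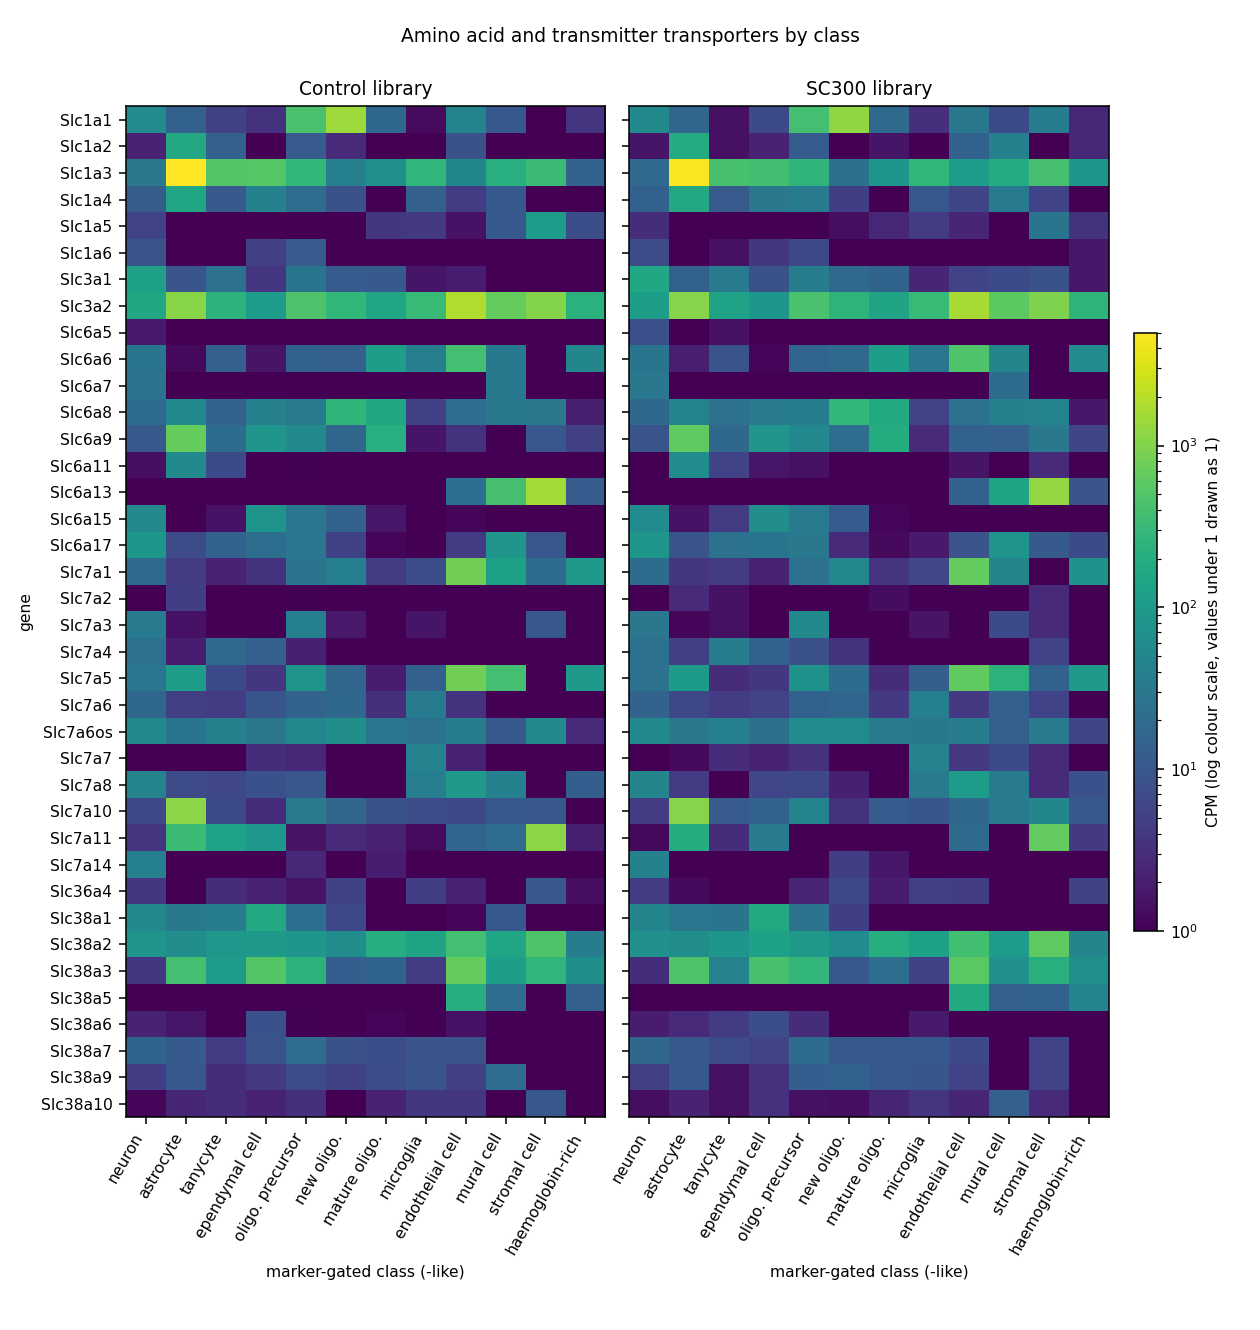
Level of the 38 genes with at least 50 UMIs in a class (rows) in 12 marker-gated classes (columns), in CPM on a log colour scale, for the Control library (left) and the SC300 library (right). The same bright cells appear in both panels, such as Slc1a3 in astrocyte-like (4838 and 4546 CPM) and Slc3a2 in endothelial cell-like barcodes (1807 and 1616 CPM).

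The abundant glutamate carriers were highest in astrocyte-like or newly formed oligodendrocyte-like barcodes and overlapped in other glial classes. Slc1a3 (GLAST) was at 4838 CPM in Control and 4546 CPM in SC300 astrocyte-like barcodes, with the next class at 528 CPM (ependymal cell-like, Control) and 421 CPM (tanycyte-like, SC300). Slc1a2 (GLT-1), the other astrocytic glutamate carrier, was at 173 and 187 CPM in astrocyte-like barcodes. Between the libraries both stayed near the same level, with log2 ratios of SC300 over Control of -0.09 (95% interval -0.11 to -0.07) and 0.11 (0.01 to 0.20). Slc1a1 (EAAC1), known as the neuronal glutamate carrier, was highest in newly formed oligodendrocyte-like barcodes, at 1419 CPM in Control and 1235 CPM in SC300. It stood at 436 and 397 CPM in oligodendrocyte precursor-like barcodes, at 61.7 and 57.8 CPM in neuron-like barcodes, and at 17.6 and 19 CPM in mature oligodendrocyte-like barcodes. The level in newly formed oligodendrocytes was thus above those of the earlier and the later class in both libraries. Slc1a4, which carries alanine and serine, was highest in astrocyte-like barcodes (156 and 171 CPM). Microglia-like barcodes held Slc1a3 at 269 and 280 CPM, and those of them without a UMI of any astrocyte marker held it at 257 and 281 CPM.

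Among the carriers of GABA, Slc6a11 (GAT-3) was found in astrocyte-like barcodes at 56.5 CPM in Control and 61.9 CPM in SC300, and no other ranked class passed 6.88 CPM. Slc6a13 (GAT-2) was highest among ranked classes in mural cell-like barcodes (402 and 143 CPM, from 38 and 21 UMIs), and the stromal cell-like class, of only 11 and 34 barcodes, held it at 1511 and 1259 CPM. Of the glycine carriers, Slc6a9 (GlyT1) was high in astrocyte-like (675 and 627 CPM) and in mature oligodendrocyte-like barcodes (212 and 195 CPM). Slc6a5 (GlyT2), the carrier of glycinergic neurons, was found almost entirely in neuron-like barcodes, which held all 22 of its UMIs in Control and 97 of 101 in SC300.

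Creatine and taurine carriers marked oligodendrocytes and vessels. The creatine carrier Slc6a8 was at 262 and 279 CPM in newly formed and at 162 and 174 CPM in mature oligodendrocyte-like barcodes. The taurine carrier Slc6a6 was at 390 and 486 CPM in endothelial cell-like barcodes, a log2 ratio of 0.32 (0.20 to 0.43), and at 119 and 120 CPM in mature oligodendrocyte-like barcodes. Neuron-like barcodes held Slc6a17, a carrier of synaptic vesicles, at 87.6 and 88.4 CPM, the proline carrier Slc6a7 at 25.8 and 29.9 CPM, and Slc7a14 at 39.7 and 42.2 CPM. None of these 3 genes differed by 1.5-fold between the libraries, and mural cell-like barcodes, 25 and 33 in number, held Slc6a17 at nearly the same level (84.7 and 81.6 CPM). Slc6a15 was higher in ependymal cell-like (83.1 and 67.2 CPM) than in neuron-like barcodes (54.5 and 60.1 CPM) in Control, whereas the counting intervals of the 2 classes overlapped in SC300.

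The exchangers separated astrocytes, vessels, microglia and neurons. The heavy chain Slc3a2 was highest in endothelial cell-like (1807 and 1616 CPM) and astrocyte-like barcodes (1099 and 1049 CPM), whereas the other heavy chain, Slc3a1, was highest in neuron-like barcodes (130 and 158 CPM). Slc7a5 (LAT1), the carrier of large neutral amino acids, was at 776 and 620 CPM in endothelial cell-like barcodes, and 290 of the 291 Control barcodes with Slc7a5 also held Slc3a2. So did 22 of the 26 without Slc7a5, at a median of 3308 UMIs against 6317. Slc7a10 (Asc-1), which exchanges serine and glycine, was at 1134 and 1066 CPM in astrocyte-like barcodes and at most 32.1 and 44.6 CPM in any other ranked class. Slc7a7 was highest in microglia-like barcodes (43.2 and 43 CPM), as was Slc7a6 (31.9 and 38.9 CPM), and Slc7a8 in endothelial cell-like barcodes (97.1 and 107 CPM). Among the cationic carriers, Slc7a1 (CAT1) was at 787 and 668 CPM in endothelial cell-like barcodes and Slc7a3 at 40 and 56.2 CPM in oligodendrocyte precursor-like barcodes, next to 32.8 and 28.8 CPM in neuron-like barcodes. Slc7a2 reached only 48 and 32 UMIs in its highest class, the astrocyte-like. Slc7a6os was at 68.1 and 62.4 CPM in newly formed oligodendrocyte-like barcodes. Its level and that of Slc7a6 are uncertain where reads of these neighbouring genes overlap.

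The glutamine carriers of the SLC38 family were spread over barrier and glial classes. Slc38a3 (SNAT3), which releases glutamine from glia, was at 675 and 564 CPM in endothelial cell-like, 510 and 414 CPM in ependymal cell-like and 396 and 485 CPM in astrocyte-like barcodes. Its second-ranked class therefore changed from ependymal cell-like in Control to astrocyte-like in SC300. Slc38a5 was found mainly in endothelial cell-like barcodes (201 and 176 CPM). Slc38a2 was present in all classes and highest in endothelial cell-like barcodes (387 and 383 CPM) among the ranked classes, and Slc38a1 in ependymal cell-like barcodes (173 and 175 CPM) before neuron-like barcodes (54.3 and 49 CPM). Slc38a7 was highest in oligodendrocyte precursor-like barcodes (21 and 20.3 CPM) and Slc38a6 in ependymal cell-like barcodes (8.5 and 7.84 CPM). The lysosomal carrier Slc36a4 was highest in newly formed oligodendrocyte-like barcodes (5.45 and 6.24 CPM), but close to its next class in each library. That class was microglia-like in Control (4.83 CPM) and haemoglobin-rich in SC300 (5.15 CPM). Slc36a1 had 143 UMIs, Slc6a20 52, Slc38a4 50, Slc6a12 29 and Slc38a11 23 over all barcodes, none with 50 in a class. The 9 genes with 1 to 7 UMIs were Slc1a7, Slc6a4, Slc6a16, Slc7a9, Slc7a12, Slc7a13, Slc7a15, Slc36a3 and Slc38a8.

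SC300 was compared with Control for each gene that reached 50 UMIs in a class over both libraries, and a gene past 1.5-fold in either direction was counted. Over 11 classes with at least 5 such members, 24 of 165 pairs of a member and a class (14.5%) were past 1.5-fold, beside 8.13% of 72116 pairs over all genes. Slc7a11 and Slc1a3 were each counted in several classes, so the pairs are not independent. The members past 1.5-fold were not spread evenly. In tanycyte-like barcodes they were 4 of 9 members, beside 14.9% of all genes, and in endothelial cell-like barcodes 5 of 17, beside 9.21%. In astrocyte-like barcodes they were 4 of 25, beside 5.66%, and in neuron-like barcodes 4 of 31, beside 6.21%. The remaining classes had few. There was 1 of 13 in ependymal cell-like barcodes (8.87% of all genes), 1 of 20 in oligodendrocyte precursor-like (5.00%), 1 of 7 in newly formed oligodendrocyte-like (8.14%), 1 of 16 in mature oligodendrocyte-like (5.31%) and 0 of 13 in microglia-like barcodes (6.72%). In the stromal cell-like and haemoglobin-rich classes, 1 of 6 and 2 of 8 members were past 1.5-fold, but so were 25.6% and 31.9% of all genes, and the median log2 ratio of all genes was itself 0.18 and 0.34 there. Past 2-fold were 11 pairs, for which the share over all genes is not given. Mural cell-like barcodes, with 3 tested members, were not counted.

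**Figure D2:**
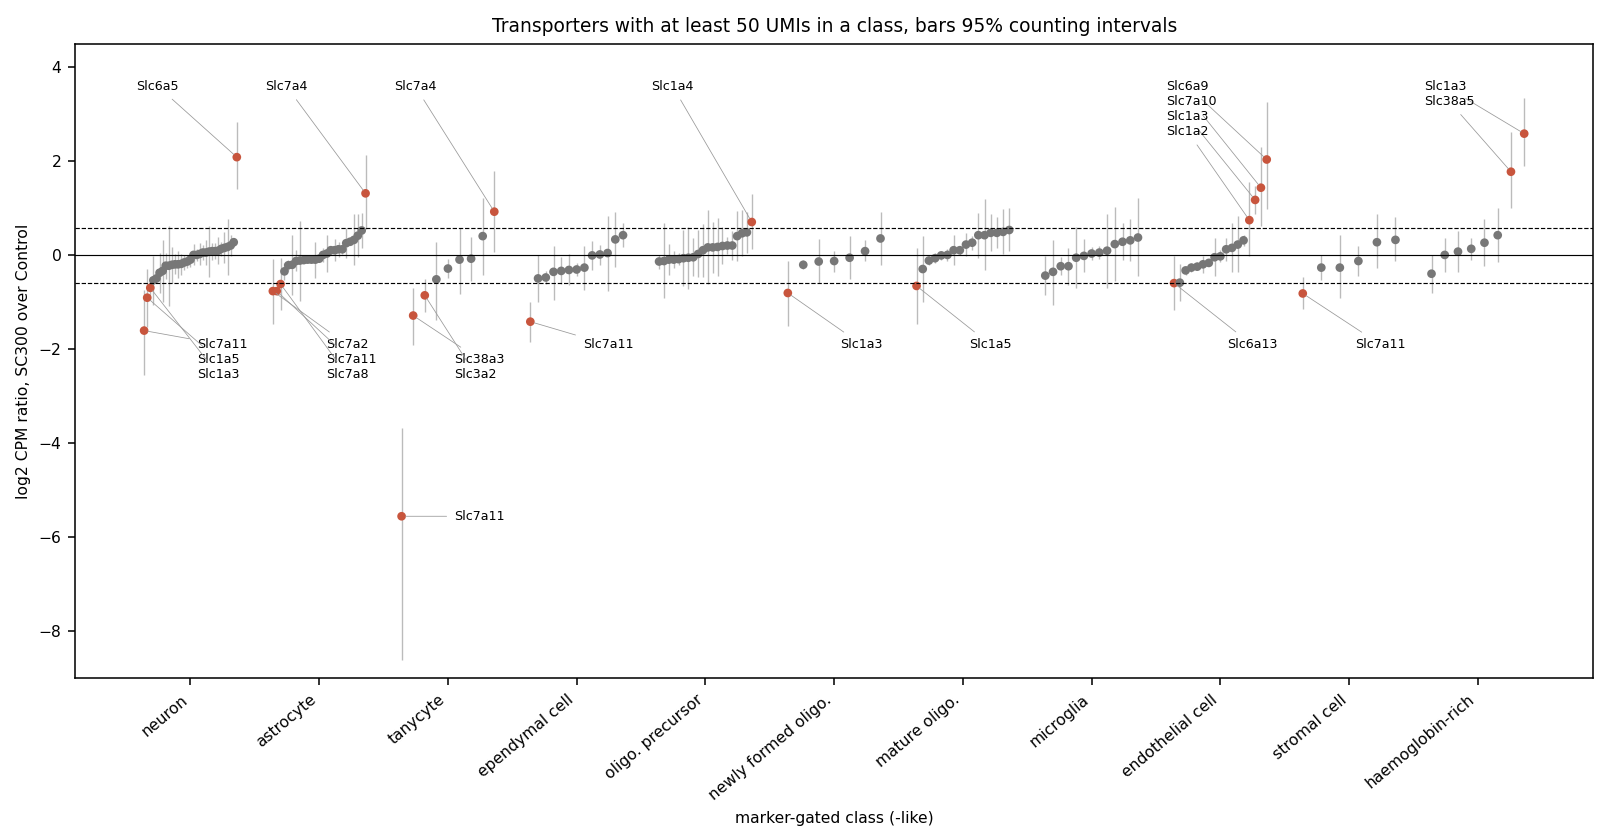
Log2 ratio of CPM, SC300 over Control, for each member with at least 50 UMIs in a class (points, grouped by class on the horizontal axis and sorted within it), with 95% counting intervals (grey bars). Dashed lines mark 1.5-fold, and red points are past it, with Slc7a11 in tanycyte-like barcodes lowest at -5.55.

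The largest of these log2 ratios was that of Slc7a11 (ENSRNOG00000010210), the cystine and glutamate exchanger, which was lower in SC300 in the 4 classes that held it above 30 CPM in Control. Over all barcodes it had 4782 UMIs in Control and 2817 in SC300. In astrocyte-like barcodes, 3353 UMIs (335 CPM) stood against 2227 (198 CPM) in SC300. The log2 ratio was -0.76 (-0.84 to -0.68). In ependymal cell-like barcodes it was at 92.3 and 34.7 CPM (239 and 62 UMIs), with intervals of 81 to 105 and 26.6 to 44.5 CPM and a log2 ratio of -1.41, which was -2.13 in barcodes with at most 20% mitochondrial UMIs. In tanycyte-like barcodes it was at 137 and 2.92 CPM, from 179 UMIs against 2. Its log2 ratio was -5.55, with a wide counting interval of -8.61 to -3.68. The stromal cell-like class, with the highest level of all, had 1123 CPM in 11 Control barcodes and 640 CPM in 34 SC300 barcodes (log2 ratio -0.81). The intervals of Control and SC300 did not overlap in any of these 4 classes. In neuron-like barcodes the level was low, at 3.71 and 1.22 CPM (44 and 15 UMIs), and 50% of the Control UMIs came from 3 barcodes. Endothelial cell-like barcodes did not follow, with 16 and 18.8 CPM and an interval of the log2 ratio from -0.36 to 0.84.

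**Figure D3:**
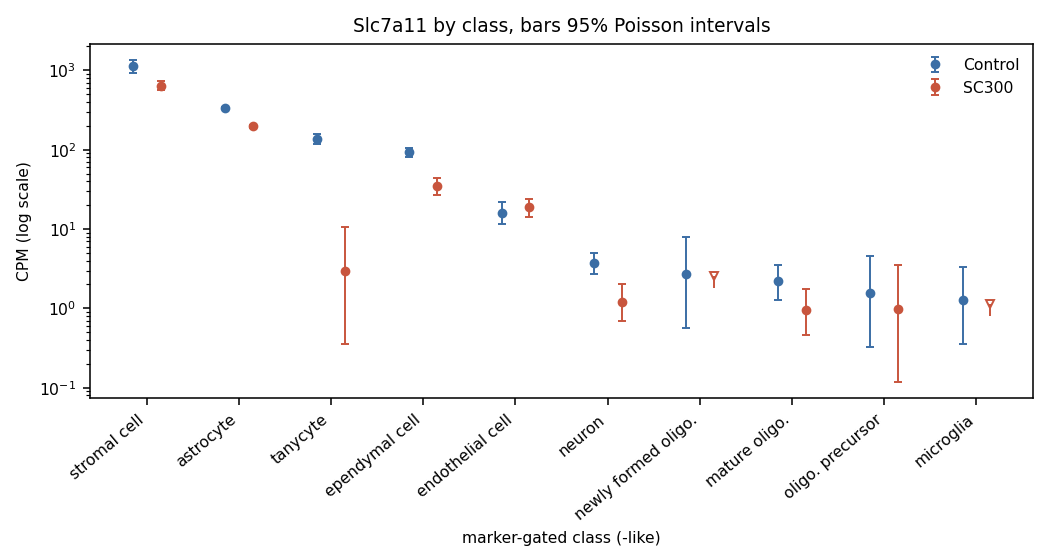
Slc7a11 level in CPM (vertical axis, log scale) in 10 classes of the Control (blue) and SC300 (red) libraries, with 95% Poisson intervals; open triangles mark the upper limit where no UMI was found. SC300 lies below Control in stromal cell-like, astrocyte-like, tanycyte-like and ependymal cell-like barcodes, and the intervals overlap in endothelial cell-like barcodes (16 and 18.8 CPM).

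In 3 of these classes, the astrocyte-like, tanycyte-like and ependymal cell-like, a smaller share of barcodes held the gene as well. Among astrocyte-like barcodes, 690 of 1277 (54%) of Control and 656 of 1433 (45.8%) of SC300 had at least 1 Slc7a11 UMI. In tanycyte-like barcodes it was found in 50 of 120 (41.7%, Clopper-Pearson interval 32.7 to 51%) and 2 of 52 (3.85%, 0.469 to 13.2%). Free RNA in droplets was judged from microglia-like barcodes, of which 4 of 399 and 0 of 389 held a UMI at a median depth of 7701 and 8103 UMIs, close to the 6267 and 6493 UMIs of astrocyte-like barcodes. After each barcode was thinned to 2000 UMIs, the share was 32.7% and 21.6% in astrocyte-like barcodes, 17.1% and 0% in tanycyte-like barcodes (0 of 51 in SC300, which allows up to 6.98%), 21.2% and 7.89% in ependymal cell-like barcodes and 0% in microglia-like barcodes of both libraries. In stromal cell-like barcodes the thinned share was not lower, at 5 of 9 (55.6%) in Control and 20 of 33 (60.6%) in SC300. Astrocyte-like barcodes with many copies were also fewer, since 103 of 1277 in Control but 50 of 1433 in SC300 held 10 UMIs or more. The gene was not concentrated in a few barcodes of the astrocyte-like class, where the 3 highest held 3.16% and 3.91% of its UMIs.

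The start regions of Slc7a11 and of its heavy chain Slc3a2, which were both lower in SC300 tanycyte-like barcodes, are printed to show the sequence at the 5′ end of the 2 genes that form the exchanger. Each run holds 250 bases before and 50 after an annotated start in RefSeq (build GRCr8, minus strand), 5′ to 3′, and Slc3a2 has 2 annotated starts. Capitals mark a match to a searched motif on either strand.
Slc7a11 (chr2:136668215-136668514): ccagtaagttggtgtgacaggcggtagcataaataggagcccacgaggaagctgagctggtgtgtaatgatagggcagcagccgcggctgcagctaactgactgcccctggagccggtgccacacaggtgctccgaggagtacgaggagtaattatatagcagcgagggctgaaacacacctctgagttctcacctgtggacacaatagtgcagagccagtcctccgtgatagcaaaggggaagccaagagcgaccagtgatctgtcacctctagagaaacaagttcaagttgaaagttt
Slc3a2, first start (chr1:215048015-215048314): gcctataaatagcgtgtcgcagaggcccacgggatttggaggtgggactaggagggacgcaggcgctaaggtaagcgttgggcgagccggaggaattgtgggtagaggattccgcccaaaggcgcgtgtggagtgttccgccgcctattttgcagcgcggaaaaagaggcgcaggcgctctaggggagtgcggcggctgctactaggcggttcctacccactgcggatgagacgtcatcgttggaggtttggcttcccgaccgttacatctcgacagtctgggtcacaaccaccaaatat
Slc3a2, second start (chr1:215039621-215039920): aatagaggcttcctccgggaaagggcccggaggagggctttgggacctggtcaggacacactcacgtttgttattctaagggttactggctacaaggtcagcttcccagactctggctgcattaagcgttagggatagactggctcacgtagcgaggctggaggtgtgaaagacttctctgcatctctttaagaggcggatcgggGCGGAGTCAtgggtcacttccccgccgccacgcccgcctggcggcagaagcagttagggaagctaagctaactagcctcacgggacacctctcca
The motifs searched on both strands were TGANGCAA, of the type bound by ATF4, TGACNNNGC, of the type in antioxidant elements, and the palindrome of the estrogen response element. The second Slc3a2 start held 1 antioxidant-type match, on the reverse strand and overlapping no other match. The other 2 runs held none of the 3 motifs in this window. Of 33469 start regions of this length, 3.65%, 12.1% and 0.0269% held the 3 motifs. Among the 43 members with a start region in the table, Slc1a4, Slc38a1, Slc6a16 and Slc7a6os held the first motif, 9 members including Slc3a2 the second, and none the third. A match is a description of letters and not a binding site.

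Among the counted classes, tanycyte-like barcodes had the largest share of members past 1.5-fold. Besides Slc7a11, its heavy chain Slc3a2 was at 247 CPM in Control and 137 CPM in SC300 (log2 ratio -0.85, -1.20 to -0.51). The glutamine carrier Slc38a3 was at 106 and 43.7 CPM (-1.28, with intervals of 89.3 to 125 and 29.5 to 62.4 CPM). Slc7a4, an orphan of the cationic family, was higher at 19.1 and 36.5 CPM from 25 UMIs in each library. The other members were closer, such as the glutamate carrier Slc1a3 at 512 and 421 CPM and Slc38a2 at 93.3 and 88.9 CPM. The median log2 ratio of the 9 members was -0.28, and that of all 4869 genes with 50 UMIs in the class was -0.07. In Control, 96% of the 50 barcodes with Slc7a11 held Slc3a2, as did 70% of the 70 without it. Slc3a2 was at 420 CPM (224 UMIs) in the former and 128 CPM (99 UMIs) in the latter, beside 137 CPM (94 UMIs) in SC300. Its lower level in SC300 thus lies close to that of the Control barcodes without Slc7a11, and whether the 2 differences are separate was not tested.

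The make-up of the tanycyte-like class also differed between the libraries. The 7 astrocyte markers summed to 1537 CPM in Control and 1013 CPM in SC300, with 1 of the 7 higher in SC300, and the 3 tanycyte markers in use to 5257 and 6907 CPM, with 1 of the 3 higher. In Control, barcodes with Slc7a11 held more Agt, an astrocyte marker (373 CPM, against 111 CPM in barcodes without Slc7a11), and less Frzb, the leading gene of the class (238 against 603 CPM). The difference in Slc7a11 was therefore taken again within parts of the class. In barcodes without an Agt UMI it was found at 75.8 CPM in Control (41 UMIs) and 2.4 CPM in SC300 (1 UMI), a log2 ratio of -4.98 (-10.32 to -2.42). In barcodes with a Frzb UMI, 59 and 26 in number, it was at 36 CPM (28 UMIs) and 2.49 CPM (1 UMI), a log2 ratio of -3.85 (-9.21 to -1.25). Both splits were chosen after the values were seen. With at least 1000 detected genes per barcode the log2 ratio in all tanycyte-like barcodes was -3.61. Scn7a, a listed tanycyte marker not in use, was at 1.87 CPM (1 UMI) in Control barcodes with Slc7a11. It was at 19.4 CPM (15 UMIs) in those without and at 46.7 CPM (32 UMIs) in SC300. Crym was at 2894, 4173 and 5838 CPM in the same order, whereas Ppp1r1b was at 1233, 1267 and 754 CPM. In SC300, Agt and Frzb were at 141 and 461 CPM. The splits do not make the libraries alike in make-up. Its part in the difference in Slc7a11 and in the other differences was not tested.

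**Figure D4:**
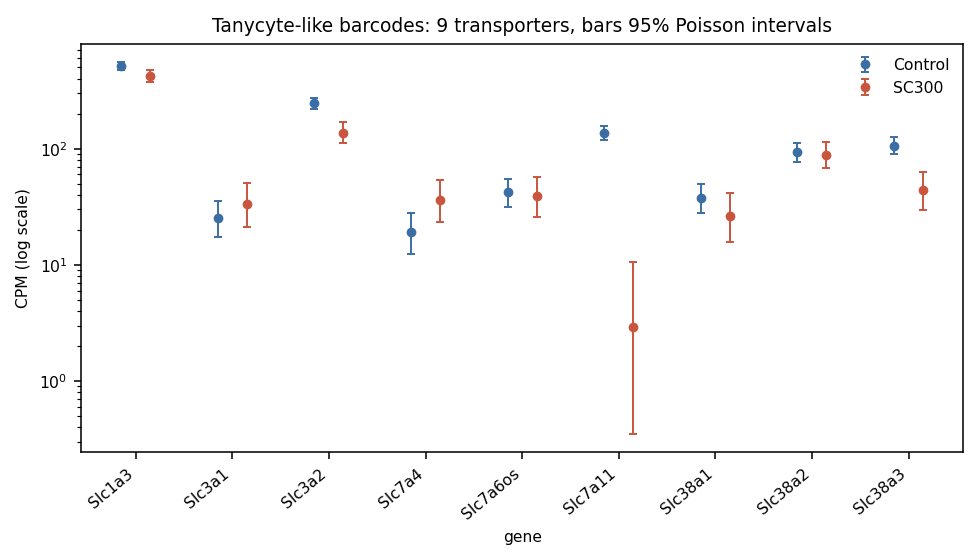
Level in CPM (vertical axis, log scale) of the 9 members with at least 50 UMIs in tanycyte-like barcodes, for Control (blue, 120 barcodes) and SC300 (red, 52 barcodes), with 95% Poisson intervals. Slc7a11 is furthest apart at 137 and 2.92 CPM, and the intervals of Slc3a2 and Slc38a3 also do not overlap.

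In endothelial cell-like barcodes, the members past 1.5-fold upwards were not the carriers of the vessel wall. The barrier carriers were slightly lower in SC300, with log2 ratios of -0.16 for Slc3a2, -0.24 for Slc7a1, -0.32 for Slc7a5, -0.26 for Slc38a3 and -0.19 for Slc38a5, and Slc6a6 was higher (0.32). The ratio of Slc38a5 was -0.69 when every barcode was weighted alike, and 15.2% and 29.1% of its UMIs came from 3 barcodes. The 4 members past 1.5-fold upwards were among the 8 genes with their highest level in astrocyte-like barcodes. Slc1a3 was at 49.5 CPM in Control and 112 CPM in SC300 (log2 ratio 1.18, 0.89 to 1.48), Slc7a10 at 6.47 and 17.5 CPM (1.44), Slc1a2 at 8.38 and 14.1 CPM (0.75) and Slc6a9 at 3.43 and 14.1 CPM (2.04). The astrocyte markers moved with them. All 7 were higher in SC300 and summed to 362 and 672 CPM, a log2 ratio of 0.89, and the 3 tanycyte markers to 7.24 and 41.3 CPM. In the 91 Control and 65 SC300 barcodes without a UMI of any astrocyte marker, Slc1a3 was at 28.9 and 28 CPM (13 and 9 UMIs). The interval of its log2 ratio there, -1.45 to 1.29, held the 1.18 of the whole class. In these barcodes Slc7a10 had 3 and 1 UMIs, Slc6a9 2 and 1, and Slc1a2 none in either library. The part of astrocyte RNA was not tested. Over the whole class Slc6a13 was lower (22.1 and 14.7 CPM), with a log2 ratio of -0.59 just past 1.5-fold. It was higher in SC300 without the 5% of barcodes with the most UMIs.

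**Figure D5:**
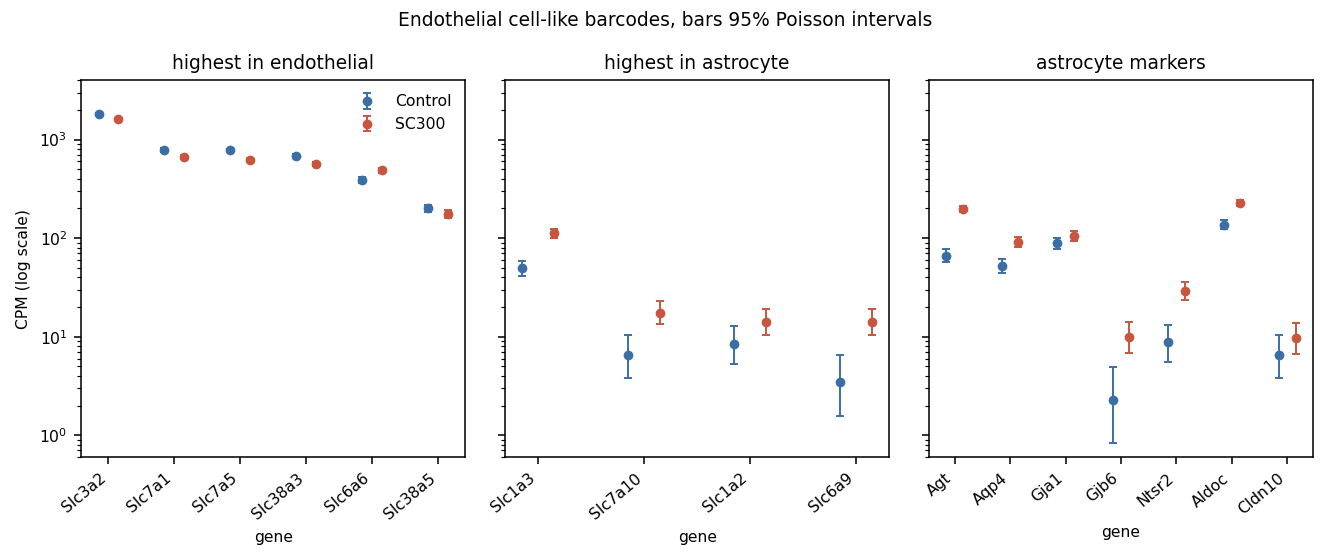
Level in CPM (vertical axis, log scale) in endothelial cell-like barcodes of Control (blue) and SC300 (red), with 95% Poisson intervals, for 6 members highest in this class (left), the 4 members highest in astrocyte-like barcodes that were past 1.5-fold (middle), and the 7 astrocyte markers (right). The left panel lies close together, while the SC300 points of the middle and right panels lie above those of Control.

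In neuron-like barcodes, 1 member was past 1.5-fold upwards. Slc6a5, the glycine carrier GlyT2, had 22 UMIs in 16 of 468 Control barcodes and 97 UMIs in 51 of 463 SC300 barcodes, which is 1.85 and 7.91 CPM (log2 ratio 2.09, 1.41 to 2.83). In astrocyte-like barcodes it was found in 0 of 1277 and 1 of 1433, at a median of 6267 and 6493 UMIs, against 23614 and 22556 in neuron-like barcodes. After thinning to 2000 UMIs, 0 of 459 and 7 of 456 neuron-like barcodes held it. The intervals of these shares, up to 0.8% in Control and 0.619 to 3.14% in SC300, overlapped. Without thinning, 1 SC300 barcode held 14 of the 97 UMIs of Slc6a5. Within the GABAergic neuron-like barcodes, where 3 of 28 members (6.70% of all genes) were past 1.5-fold, 4 of 270 barcodes held it in Control and 32 of 251 in SC300, at 0.826 and 8.61 CPM. In the same barcodes 2 of 4 tested vesicular carriers were past 1.5-fold upwards, Slc17a6 of glutamatergic neurons (4.13 and 9.04 CPM, 30 and 63 UMIs) and Slc18a3 of cholinergic neurons (4.82 and 7.89 CPM, 35 and 55 UMIs), and their part in the result was not tested. Slc17a6 is itself a marker of the glutamatergic list and Slc32a1 one of the GABAergic list, so the gate of this class bears on the levels of both. Within the glutamatergic neuron-like barcodes, where 1 of 23 members (6.32% of all genes) was past 1.5-fold, Slc6a5 was at 2.98 and 5.56 CPM, with an interval of the log2 ratio from -0.25 to 2.15. The gene Slc32a1, which loads GABA and glycine into vesicles, accompanied Slc6a5 in 5 of its 16 barcodes in Control and 29 of its 51 in SC300. Barcodes with Slc6a5 had a median of 30522 UMIs in Control and 40621 in SC300.

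The members lower in SC300 neuron-like barcodes were Slc1a3, Slc1a5 and Slc7a11. Slc1a3 was at 30.1 and 18.6 CPM (log2 ratio -0.69), with 38.4% and 32.9% of its UMIs in 3 barcodes. Its log2 ratio was within 1.5-fold under a stricter gate (-0.40) and with every barcode weighted alike (-0.09). The astrocyte markers in the same barcodes summed to 413 and 321 CPM, and in barcodes without them Slc1a3 was at 12.9 and 17.8 CPM (8 and 10 UMIs). In GABAergic neuron-like barcodes Slc1a3 was at 31.5 and 13.1 CPM and Slc7a10 at 6.33 and 4.02 CPM, while all 7 astrocyte markers were lower in SC300. Slc1a5, a carrier of glutamine and other neutral amino acids, was at 5.65 and 3.02 CPM from 67 and 37 UMIs. In glutamatergic neuron-like barcodes Slc7a8 was at 23.8 and 13.8 CPM. Of the heavy chains, Slc3a1 was at 130 and 158 CPM (0.28, 0.19 to 0.38) and Slc3a2 at 165 and 118 CPM (-0.49, -0.59 to -0.39), both within 1.5-fold.

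In astrocyte-like barcodes, Slc7a11 was by far the most abundant of the 4 members past 1.5-fold. Slc7a4 was at 2 and 4.98 CPM, Slc7a2 at 4.8 and 2.84 CPM, and Slc7a8 at 6.9 and 4.53 CPM, from 76, 80 and 120 UMIs. The abundant carriers stayed close, with log2 ratios of -0.10 for Slc6a9, -0.09 for Slc7a10, -0.07 for Slc3a2 and 0.29 for Slc38a3. The heavy chain Slc3a2 was held by 97.5% of the Control and 97.9% of the SC300 barcodes with Slc7a11. It was also held by 85.2% and 92.9% of those without Slc7a11, which had fewer UMIs (a median of 5075 against 8185 in Control and 5736 against 7968 in SC300). Thus the light chain was lower and the heavy chain was not past 1.5-fold in this class.

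In the oligodendrocyte classes single members of low count were past 1.5-fold. Slc1a4 was at 21 and 34.4 CPM in precursor-like barcodes, Slc1a3 at 40 and 22.9 CPM in newly formed oligodendrocyte-like barcodes with 68.2% and 54.5% of its UMIs in 3 barcodes and all 7 astrocyte markers lower, and Slc1a5 at 4.04 and 2.58 CPM in mature oligodendrocyte-like barcodes. In haemoglobin-rich barcodes, which were gated by haemoglobin genes and Alas2, Slc1a3 was at 14.9 and 90.1 CPM, with 91.4% of the SC300 UMIs in 3 barcodes. The astrocyte markers were at 46.2 and 220 CPM there. Slc38a5 was at 13.5 and 46.3 CPM there, where all 7 endothelial markers (1319 and 1603 CPM in sum) and all 6 mural markers (317 and 483 CPM) were higher in SC300 as well.

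Genes that work beside the carriers were counted from 6 short lists. Of all genes, 5.66% were past 1.5-fold in astrocyte-like, 6.21% in neuron-like, 14.9% in tanycyte-like, 8.87% in ependymal cell-like and 9.21% in endothelial cell-like barcodes. In tanycyte-like barcodes 10.6% of all genes were lower and 4.31% higher, and in endothelial cell-like barcodes 3.35% were lower and 5.86% higher. In astrocyte-like barcodes none of the 9 tested genes of glutamate and GABA metabolism, the 6 of glycine cleavage and serine synthesis, the 5 of creatine and taurine synthesis, the 6 of the ATF4 amino acid response and the 5 of the sodium and potassium pump was past 1.5-fold, and vesicular carriers were not tested for lack of counts. The RNA of Atf4 itself, the factor of that response, was at 117 CPM in both libraries, and that of its target Ddit4 at 289 and 207 CPM. Atf4 protein was not measured. The median log2 ratio of the tested genes of the ATF4 list was -0.18 in this class, beside -0.01 for all genes. In neuron-like barcodes the creatine enzyme gene Gamt was higher (13.7 and 23.7 CPM), and no other gene of the 6 lists was past 1.5-fold. In tanycyte-like barcodes all 3 tested pump genes were lower, among them Atp1b1 (72.6 and 42.3 CPM) and Atp1b2 (375 and 229 CPM), and 2 of 4 genes of the ATF4 list, Ddit4 (121 and 53.9 CPM) and Cebpb (131 and 83.1 CPM). The enzyme gene Aldh5a1 was lower too (53.5 and 21.9 CPM, 1 of 5 of its list), while Atf4 was at 94 and 88.9 CPM. Ddit4 was also lower in ependymal cell-like barcodes (342 and 187 CPM). In stromal cell-like barcodes 2 of 3 tested genes of the ATF4 list, Cebpb and Ddit4, were lower, beside 25.6% of all genes past 1.5-fold. Of the same list, Cebpb was lower in microglia-like barcodes (1 of 5, beside 6.72%). Chac1 was higher in glutamatergic neuron-like barcodes (1 of 7, beside 6.32%). In endothelial cell-like barcodes 3 of 7 genes of glutamate and GABA metabolism were higher, including glutamine synthetase, Glul (241 and 416 CPM), and 2 of 5 of serine synthesis and 1 of 3 of the pump, Atp1b2, in the same barcodes in which the astrocyte markers were higher. Lower there were Ddit4 (435 and 179 CPM, log2 ratio -1.28, -1.43 to -1.14) and the taurine enzyme gene Cdo1 (67 and 42.3 CPM).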

How the data were processed

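Single-cell libraries of Control and SC300 hypothalamus (1 each, from 3 pooled rats) were analysed. The authors aligned reads to the Ensembl 96 rat transcriptome with Cell Ranger (3.0.1 in the submitters' processing notes, 3.0.2 for demultiplexing) and deposited UMI counts per gene and barcode, as whole numbers. The methods also name a merge by Cell Ranger's aggregate function at its default settings, and whether the deposited counts precede that step was not given in the sources used here. The design text of the series, unlike the methods, describes the capsules of the SC300 rats as oil-filled, and the groups were taken from the sample titles. The methods give both the cell numbers of the files and lower ones.

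Members and lists were chosen with earlier results of these data known. 1 gene of the families left out by the rule, 1 further member and 1 gene of the partner lists are not reported here, and counts of members and lists are without them.

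Barcodes with at least 200 genes were kept. For each marker with at least 1000 UMIs, log-normalized counts (10000 UMIs per barcode) were divided by the mean of the 20 highest values and averaged per list. A class needed 3 markers with a UMI, a score of 0.1 and a 1.5-fold lead. GABAergic and glutamatergic neuron-like barcodes needed 3 UMIs of their list and 3 times those of the other. The lists were Slc32a1, Gad1 and Gad2 for the former and Slc17a6, Slc17a7 and Slc17a8 for the latter. No doublet caller was run, and the required lead removed only barcodes whose marker lists scored alike, so that barcodes with markers of a second cell type remain in the classes. UMIs were summed per class and scaled to CPM. Intervals were Poisson for CPM, Clopper-Pearson for shares and conditional binomial for ratios. A count of 0 was set to 3 UMIs, which makes such a ratio a bound, and no ratio was taken when both counts were 3 or fewer.

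Members with 50 UMIs in a class were named with their highest class, members past 1.5-fold where the class held at least 100 UMIs over both libraries (at most 5 per direction and class), members with 500 UMIs in their highest class whatever their ratio, and at most 2 genes past 1.5-fold with 100 UMIs per partner list and class. Further values, those of members past 1.5-fold with fewer UMIs included, were chosen after they were seen. Ratio and interval code was tested on simulated data. Alternatives covered the gate, barcode filters, scaling, weighting and thresholds. The software was numpy 2.4.6, scipy 1.17.1, pandas 2.3.3 and matplotlib 3.10.9 under Python 3.11.15. Start regions came from RefSeq (GRCr8), in which 43 members matched by symbol.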

Additional observations from a re-analysis of the deposited data

Results flagged for a closer look

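Among members with at least 100 UMIs in each class compared, 1 was past 1.5-fold in opposite directions in different classes, and the difference between classes was not tested. The share over all genes is not given for this count. Slc1a3 was lower in SC300 neuron-like barcodes (-0.69) and higher in endothelial cell-like (1.18) and haemoglobin-rich barcodes (2.59). Each of these ratios came within 1.5-fold under some alternative. In neuron-like barcodes the ratio was -0.40 under the stricter gate and -0.09 with every barcode weighted alike. For Slc1a3 it was 0.42 in endothelial cell-like barcodes under the looser gate and 0.15 in haemoglobin-rich barcodes under the stricter gate. Its sign was that of the summed astrocyte markers in each of the 3 classes (-0.36, 0.89 and 2.25). With fewer UMIs, Slc7a10 was past 1.5-fold upwards in endothelial cell-like barcodes (1.44, 17 and 56 UMIs) and downwards in GABAergic neuron-like barcodes (-0.66, 46 and 28 UMIs, with an interval of -1.39 to 0.05). The part of astrocyte RNA in these differences was not tested. Barcodes of these classes without astrocyte markers held few UMIs of Slc1a3, and their intervals were wide.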

How the results depend on the processing

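Of 375 values of 37 log2 ratios under 13 alternatives, 338 stayed within the counting interval of the reported value and 32 left it. The other 5 were changes of sign of ratios past 1.5-fold. Changes of sign of ratios within 1.5-fold are counted among the 338 or the 32. Slc7a11 stayed lower in SC300 under every alternative run, at -0.70 to -0.82 in astrocyte-like, -1.11 to -2.13 in ependymal cell-like and -3.61 (at least 1000 detected genes) to -5.55 in tanycyte-like barcodes, where a gate with 4 markers gives no value because the list has 3 in use. In stromal cell-like barcodes its ratio fell within 1.5-fold under some alternatives. It was -0.54 without the 5% of barcodes with the most UMIs and -0.58 with every barcode weighted alike. Pairs of a member and a class past 1.5-fold numbered 24 of 165 at the reported setting. They numbered 14 with at least 100 UMIs, 53 with at least 20 UMIs and 11 at 2-fold, and 18 to 28 under the other alternatives. The number of pairs tested and the share over all genes are given for the reported setting only. The other counts therefore cannot be set against all genes. Reversed were Slc1a3 in haemoglobin-rich barcodes under the looser gate (-0.04) and Slc6a13 in endothelial cell-like barcodes without the 5% of barcodes with the most UMIs (0.33). Slc1a3 also changed sign in barcodes without astrocyte markers of the endothelial cell-like (-0.05), neuron-like (0.46) and GABAergic neuron-like classes (0.54). These 3 ratios rest on 13 and 9, 8 and 10, and 3 and 6 UMIs. Their intervals were -1.45 to 1.29, -1.03 to 2.01 and -1.69 to 3.17, and each held the reported ratio (1.18, -0.69 and -1.27). Of ratios within 1.5-fold, the sign also changed for Slc6a8 in newly formed oligodendrocyte-like (0.09, and -0.18 with every barcode weighted alike), Slc38a1 in ependymal cell-like (0.02, and -0.18 at its lowest) and Slc38a2 in endothelial cell-like barcodes (-0.02, and 0.01 under the stricter gate). The cause was not tested. Alternatives that left out the 3 barcodes with the most UMIs of a gene or split barcodes by astrocyte markers, Agt or Frzb were chosen after seeing the data. No paired analysis was possible because each group is 1 library. Depth limits the sparse classes most, since 2 UMIs set the SC300 level of Slc7a11 in tanycyte-like barcodes.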
